A study of Mus musculus with 15 samples.

Results

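RNA-Seq values of 10 genes of cellular iron handling were examined in NMuMG cells, a mouse mammary epithelial cell line, after loss of PCBP1. The members were taken by gene name from a list of iron genes (Trf, Tfrc, Fth1, Ftl1, Slc11a2, Slc40a1, Ireb2, Aco1, Ncoa4 and Hmox1), and all 10 were listed among the 13893 genes of the first dataset and the 15023 protein-coding genes of the second. Trf was put on the list with its fall after PCBP1 knockdown already known, so that its change is given as a description.

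The second dataset compared 2 samples of control NMuMG cells, which carry no treatment in the labels and scrambled shRNA (shSCR) in the paper's text, with 2 samples of NMuMG cells expressing an shRNA against PCBP1 (shPCBP1). In the first dataset every line carried the PCBP1 shRNA. Of its 11 lines, each sampled once, 4 were shPCBP1 controls, namely the unaltered line and the clones CT 1 to 3, which had received Cas9 without a guide. FAM3C had been knocked out in 3 further clones (FAM3C KO), LIFR in 3 (LIFR KO), and both genes in 1 (the double KO). Each knockout line grew from a single colony after excision of a short coding fragment with Cas9, so that differences between clones and the effect of a knockout share the same samples. Where nothing states that samples came from separate cultures, as in the second dataset, the p-values measure only the spread between these samples, which may be technical.

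Cells take up iron mainly bound to transferrin (Trf), a secreted carrier protein, through the transferrin receptor (Tfrc), and DMT1 (Slc11a2) moves the released iron across the endosomal membrane. Iron is stored in ferritin, a shell of heavy (Fth1) and light (Ftl1) chains, into which PCBP1 delivers iron as a chaperone. NCOA4 (Ncoa4) carries ferritin to the lysosome for breakdown, ferroportin (Slc40a1) exports iron, and heme oxygenase 1 (Hmox1) frees iron from heme. The iron regulatory proteins IRP1 (Aco1) and IRP2 (Ireb2) bind hairpins called iron-responsive elements (IREs) when iron is scarce. Binding in the 5′ untranslated region blocks translation of the mRNA, whereas binding in the 3′ untranslated region protects the mRNA from decay.

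The hairpins are shown because they separate the members controlled through mRNA decay from those controlled through translation, a step that RNA levels do not report. The untranslated regions of protein-coding transcripts (GENCODE M21, GRCm38) were searched on the transcript strand for a C, 5 bases, the loop CAGTG with 1 further base other than G, and 5 bases pairing with the first 5. Of the 10 members, 4 held such a hairpin (Fth1, Ftl1, Slc40a1 and Tfrc), Slc11a2 held one with an unpaired base, and Trf, Ireb2, Aco1, Ncoa4 and Hmox1 held no match. The 5′ hairpins of Fth1 (chr19:9982732-9982760, plus strand), Ftl1 (chr7:45459779-45459807, minus strand) and Slc40a1 (chr1:45925465-45925493, minus strand) are printed as DNA, 5′ to 3′, with the loop in capitals:
Fth1: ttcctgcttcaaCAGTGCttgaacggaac
Ftl1: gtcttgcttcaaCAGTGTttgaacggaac
Slc40a1: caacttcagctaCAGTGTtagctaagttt
Fth1 and Ftl1 carried a paired hairpin in 3 of 3 and 1 of 2 transcripts searched. A paired hairpin was found in the 5′ region of 15 of 20561 genes (0.0730%).

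The 3′ region of Tfrc held 4 paired copies and that of Slc11a2 1 copy with an unpaired base, in 1 of the 2 transcripts searched for each gene. The Slc11a2 copy (chr15:100395152-100395181, minus strand) and the Tfrc copies (chr16:32631219-32631247, chr16:32631598-32631626, chr16:32631663-32631691 and chr16:32631710-32631738, plus strand) read as follows, with the loop in capitals:
Slc11a2: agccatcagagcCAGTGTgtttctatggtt
Tfrc copy 1: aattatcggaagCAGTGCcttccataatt
Tfrc copy 2: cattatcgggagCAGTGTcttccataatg
Tfrc copy 3: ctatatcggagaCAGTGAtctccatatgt
Tfrc copy 4: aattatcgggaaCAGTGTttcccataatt
With 1 unpaired base allowed, 250 of 20954 genes (1.19%) had a match in the 3′ region, and 68 (0.325%) had a paired one. Untranslated regions differ in length between genes, so that long ones hold a match more often, and a match is a description of the letters only.

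The authors deposited CPM, counts scaled to a common library size, and in the first dataset a library's lowest value stands for at most 1 read. Taken as 1 read, these lowest values implied 16031859 to 46901675 reads per library in the first dataset, which are upper limits. In the second dataset the steps between low values implied 53022269 to 56497175 reads. Pcbp1, the targeted gene, was at 287 and 312 CPM in the control samples and at 14.1 and 14.2 CPM in shPCBP1. Fam3c mRNA stood at 26.4 to 42.9 CPM in FAM3C KO against 47.0 to 59.4 in the shPCBP1 lines, and Lifr mRNA at 14.6 to 34.9 CPM in LIFR KO against 25.8 to 40.2, although a short excision need not lower the mRNA. Pcbp1 was at 32.9 to 39.5 CPM in the shPCBP1 lines, the FAM3C KO clones and LIFR KO clone 1, at 22.5 and 19.9 CPM in LIFR KO clones 2 and 3, and at 20.6 CPM in the double KO. The epithelial marker Cdh1 was present in every library, at 232 and 237 CPM in control and 149 CPM in both shPCBP1 samples. Over the 6 epithelial markers listed (of 10 on the list), the sum moved from 2935 and 2989 CPM in control to between 2774 and 2831 in shPCBP1. The sum of the 8 mesenchymal markers listed (of 9) moved from between 749 and 768 to between 1705 and 1727 CPM. LIFR KO clones 2 and 3 and the double KO stood apart from the other lines of the first dataset. In these 3 libraries the deviation of a gene fell with its GC content (Spearman rho of -0.757 to -0.710 across genes, which are not independent replicates, against -0.287 to 0.237 in the other 8 libraries), and mitochondrial mRNAs took 7.16 to 8.58% of the values against 3.14 to 4.06%.

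In shPCBP1 cells, 2 of the 10 members changed by at least 1.5-fold, with Hmox1 higher and Trf lower. The Trf transcript was nearly lost, the Hmox1 transcript rose about 4-fold, and 6 further members moved by less than 1.5-fold, with Slc11a2, Fth1 and Tfrc higher and Slc40a1, Aco1 and Ftl1 lower. Ireb2 and Ncoa4 did not pass the test. The test was that of limma on log2(CPM + 0.1), where changes of genes at low levels come out too small, with Benjamini-Hochberg adjustment over 11384 genes and a threshold of 0.07. In this dataset 80.1% of all genes tested passed (42.1% higher and 38.0% lower), and 8 of 10 members did (4 higher and 4 lower). Without Trf, whose fall was known when the members were listed, the count was 7 of 9 (4 higher and 3 lower), a share near the background. With a fold change of at least 1.5 also required, 31.1% of all genes passed (16.0% higher and 15.1% lower), against 1 of the 9 members other than Trf. The groups did not overlap for 8 of these 9 members, where 89.0% of all genes did not. The median log2 fold change of these 9 members was 0.06, and that of all genes tested was 0.02.

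Trf, which encodes the iron carrier transferrin, lies on chromosome 9 from 103204001 to 103230444 (GRCm38, minus strand). It was at 91.3 and 91.8 CPM in control cells and at 0.358 and 0.351 CPM in shPCBP1 cells. Both shPCBP1 samples were far below both control samples, with a ratio of the mean CPM of 258. The log2 fold change was -7.65 ± 0.08 (SE, n = 2 per group), larger in size than in 99.9% of the genes tested. In bulk RNA, fewer cells expressing Trf and less Trf RNA per cell cannot be told apart. Transferrin is best known as a product of hepatocytes. Of 5 hepatocyte markers, 4 were lower in both shPCBP1 samples than in both controls. The groups did not overlap, in either direction, for 89.0% of all genes tested, so this count is not read as a result. Serpina1a was at 25.2 and 26.8 CPM in control and at 0.314 to 0.358 CPM in shPCBP1, and Ttr at 2.58 CPM and at most 0.0539 CPM. Apoa1 was at 0.496 to 0.585 CPM in control and at most 0.0555 CPM in shPCBP1, and Alb at most at 0.0755 and 0.0186 CPM. Apoa1 and Alb averaged under 0.5 CPM and were not among the genes tested. The fifth, Apob, was higher, at 508 to 509 CPM in control and 652 to 664 CPM in shPCBP1, and the part of these genes in the fall of Trf was not tested. The 80 tested genes within 5 Mb of Trf had median log2 differences of 0.28 and 0.25 in the 2 shPCBP1 samples, so that the fall was not shared by the surrounding genes.

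Tfrc, the receptor for iron-loaded transferrin, was at 224 and 227 CPM in control and at 245 and 242 CPM in shPCBP1. The groups did not overlap, and the rise was small (log2 fold change 0.11 ± 0.02, SE, adjusted p = 0.00055 by limma). With quantile normalization it no longer passed (0.04, adjusted p = 0.0819).

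Slc11a2, the transporter that brings iron out of the endosome, rose from 23.7 and 22.1 CPM in control to 33.1 and 33.5 CPM in shPCBP1. Both knockdown samples exceeded both control samples, with a log2 fold change of 0.54 ± 0.04 (SE, adjusted p = 5.45e-07 by limma). The 95 tested genes within 5 Mb had median log2 differences of 0.29 and 0.25 in the 2 shPCBP1 samples, in the same direction and smaller than those of Slc11a2 itself (0.53 and 0.55). The part of the neighbouring genes in this rise was not tested.

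The ferritin chains moved little. Fth1, the heavy chain that oxidises iron on entry, was at 395 and 506 CPM in control and at 535 and 531 CPM in shPCBP1. The groups did not overlap, but the control samples lay 0.36 apart on the log2 scale, more than in 96.3% of the genes tested. The rise (0.25 ± 0.08, SE, adjusted p = 0.014 by limma) was as large but no longer passed without shPCBP1 replicate 1 (0.25, adjusted p = 0.227) or replicate 2 (0.26, adjusted p = 0.208), where the spread comes from the control pair alone. It was 0.07 without control replicate 1 and 0.43 without control replicate 2, and passed in both. Ftl1, the light chain, was at 1835 and 1777 CPM in control and at 1663 and 1651 CPM in shPCBP1. Its fall of -0.12 ± 0.02 (SE, adjusted p = 0.00038 by limma) turned to a rise of 0.21 with quantile normalization, so its direction depends on the scaling. Both ferritin mRNAs carry the 5′ hairpin printed above. Ncoa4, the receptor that delivers ferritin to autophagosomes, was at 36.1 and 37.3 CPM in control and at 36.2 and 35.9 CPM in shPCBP1, a difference within the spread (-0.02 ± 0.03, SE, adjusted p = 0.534 by limma).

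Slc40a1, the only known cellular iron exporter, fell from 75.1 and 75.9 CPM to 55.3 and 54.6 CPM. The groups did not overlap, and the log2 fold change was -0.46 ± 0.03 (SE, adjusted p = 4.33e-08 by limma). Its direction was thus opposite to that of the importer Slc11a2, and the ratio of Slc11a2 to Slc40a1 CPM went from 0.316 and 0.291 in control to 0.599 and 0.614 in shPCBP1.

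Of the iron regulatory proteins, Aco1 (IRP1, which is a cytosolic aconitase when it holds an iron-sulfur cluster) fell from 32.6 and 31.7 CPM to 26.5 and 28.0 CPM, a log2 fold change of -0.24 ± 0.04 (SE, adjusted p = 0.000259 by limma). Ireb2 (IRP2, which is degraded when iron is plentiful) was at 42.0 and 43.9 CPM in control and at 44.3 and 45.1 CPM in shPCBP1, a change of 0.06 ± 0.03 that did not pass (adjusted p = 0.138 by limma) except without control replicate 2 (0.09, adjusted p = 0.0374).

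Hmox1, which opens the heme ring and releases iron, showed the largest rise among the members. It was at 10.3 and 9.50 CPM in control and at 42.3 and 44.7 CPM in shPCBP1. Both knockdown samples stood well above both controls, with a ratio of the mean CPM of 4.38 and a log2 fold change of 2.12 ± 0.05 (SE, adjusted p = 4.52e-11 by limma), larger in size than in 94.4% of the genes tested.

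**Figure D1:**
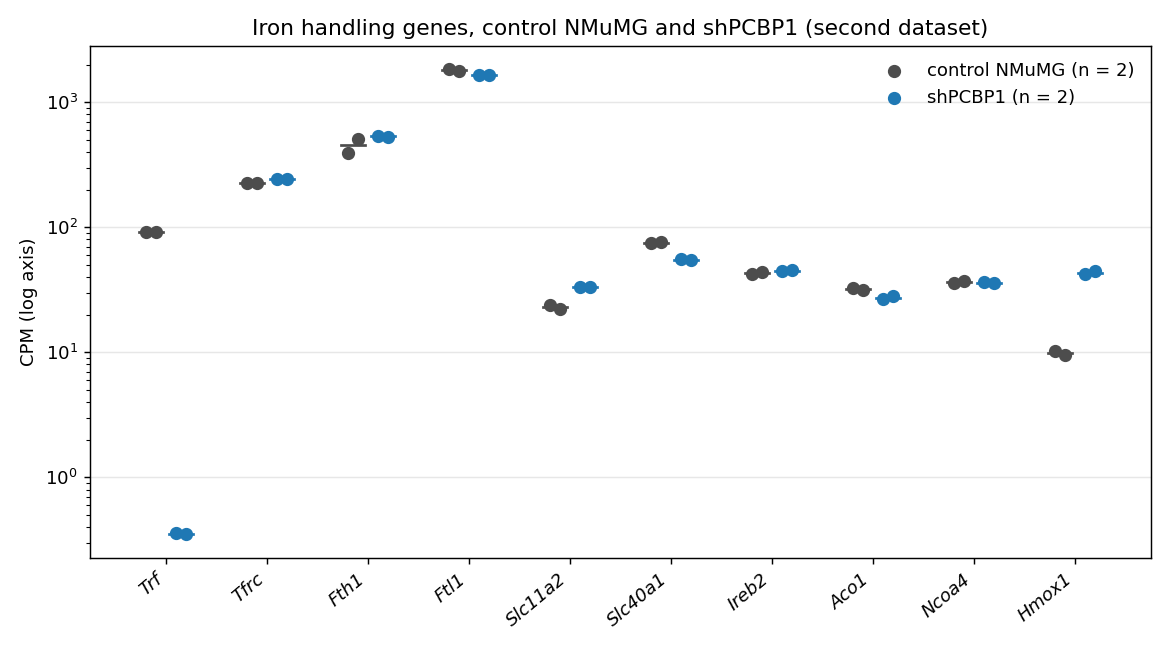
CPM of each member in each sample of the second dataset on a log axis, in control NMuMG (grey, n = 2) and shPCBP1 (blue, n = 2), with a short line at each group mean. Trf drops from about 91 to below 0.36 CPM and Hmox1 climbs from about 10 to over 42 CPM, while the other members shift by less than 1.5-fold.

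Levels were compared between genes only after division by the exon length of the gene. In control cells the order by CPM per kb was Ftl1 (1348), Fth1 (130), Tfrc (36.4), Trf (27.6), Slc40a1 (8.39), Aco1 (7.15), Hmox1 (5.67), Ireb2 (4.53), Ncoa4 (3.92) and Slc11a2 (3.61). The ranges of neighbours in this order did not overlap between samples. In shPCBP1 cells Trf was last, at 0.107 CPM per kb, and Hmox1 came next after Tfrc, at 24.8 CPM per kb. The ranges of Slc40a1 (6.07 to 6.14) and Aco1 (5.89 to 6.22) CPM per kb then overlapped. With the length of the longest transcript in place of all exons, 7 of the 10 members kept their rank in control cells, and Ncoa4, Aco1 and Hmox1 did not. The Fth1 model of the annotation is longer than the one in the second dataset, and with the longest transcript Fth1 was at 302 CPM per kb in control cells, still between Ftl1 and Tfrc. The gap between Ftl1 and Fth1 depended on the dataset. The ratio of Fth1 to Ftl1 CPM in shPCBP1 cells was 0.322 here and 1.22 to 1.75 in the first dataset. Ftl1-ps1, a copy of Ftl1 listed there, is not listed here, and where its reads were counted is not known.

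Other genes of iron handling were grouped into 10 lists, of which 116 different genes were tested in the second dataset. Of these genes 44 were higher and 46 lower, 19 in each direction by at least 1.5-fold, and their median log2 fold change was 0.02. The lists were drawn up with earlier results known, and they moved in both directions. The counts below stand beside 42.1% higher and 38.0% lower over all genes tested, and no list was tested against the other genes.

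In the list of iron uptake and reduction, 6 of 11 tested genes were higher and 3 lower. Tfr2 and Hfe, which encode a second transferrin receptor and a protein that binds transferrin receptors, rose from low levels. Tfr2 went from 0.301 and 0.321 CPM to 2.13 and 2.38 CPM (log2 fold change 2.52). Hfe went from 0.867 and 0.886 CPM to 3.89 and 4.07 CPM (2.06). Steap3, the endosomal ferrireductase, rose by 1.04 on the log2 scale, while Steap4, another metalloreductase, and Slc39a14, a transporter for iron outside transferrin, changed by -0.93 and -0.87.

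The list of iron export and systemic regulation had 4 of 8 tested genes higher and 4 lower. Cp, which encodes the ferroxidase ceruloplasmin, fell from 52.1 and 54.0 CPM to 29.6 and 28.8 CPM (log2 fold change -0.86), in the same direction as Slc40a1. Id1 and Smad6, targets of BMP signaling, changed by 1.29 and 0.95, and the BMP type I receptor Acvr1 by -0.66. Among iron chaperones and genes of IRP turnover 5 of 9 were higher and 3 lower. Pcbp1 itself had a log2 fold change of -4.39, whereas Bola2, a partner in iron-sulfur cluster delivery, and Pcbp4, a relative of PCBP1, had 0.79 and 0.71. Of 4 tested genes among other mRNAs reported to carry an IRE, 1 was higher and 2 were lower, with the hypoxia factor Epas1 at -0.79.

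Heme synthesis had 5 of 9 tested genes higher and 1 lower, with a list median of 0.42 on the log2 scale against 0.02 over all genes. Cpox rose from 17.1 and 16.8 CPM to 36.2 and 37.7 CPM (log2 fold change 1.12), and Alas1, the first enzyme of the pathway in most tissues, changed by 0.75. Ppox, a later step, changed by -0.70. Heme transport and breakdown had 3 of 11 higher and 5 lower. The heme transporters Slc48a1 and Slc46a1 changed by 0.99 and 0.62, and Hpx (hemopexin), Blvrb (a biliverdin reductase) and Bach1 (a heme-binding repressor of Hmox1) by -2.19, -1.86 and -0.70. Bach1 went from 26.3 and 25.7 CPM to 15.4 and 16.5 CPM.

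NRF2 and its targets, to which Hmox1 also belongs as background, had 7 of 14 tested genes higher and 5 lower. The largest rises were those of Slc7a11, the cystine importer (log2 fold change 1.00), Gclc, an enzyme of glutathione synthesis (0.92), and Txnrd1, thioredoxin reductase (0.68), and the largest fall was that of Gstm1 (-1.27). Nfe2l2, which encodes NRF2, was lower by -0.50. The median of the list was 0.05. By at least 1.5-fold, 5 of the 14 were higher and 1 was lower, where 16.0% of all genes were higher and 15.1% lower. Whether NRF2 had a part in these changes was not tested.

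In the list of mitochondrial iron and iron-sulfur clusters, 7 of 29 were higher and 12 lower. Iba57 and Glrx5, which act in cluster assembly, had 0.75 and 0.74, and Fdxr, Mms19 and Abcb8 had -0.77, -0.76 and -0.69 on the log2 scale. Among ferritinophagy and lysosome genes 3 of 13 were higher and 6 lower, with the lysosomal regulator Tfeb and the membrane protein Lamp2 at -0.64 and -0.63. Of 9 genes linked to lipid peroxidation, 3 were higher and 5 lower, with Vdac2 at 1.11, Gch1 at -1.53, Acsl4 at -0.76 and Lpcat3 at -0.73. Their list is labelled lipid peroxidation defence, but not all of its genes protect against it.

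**Figure D2:**
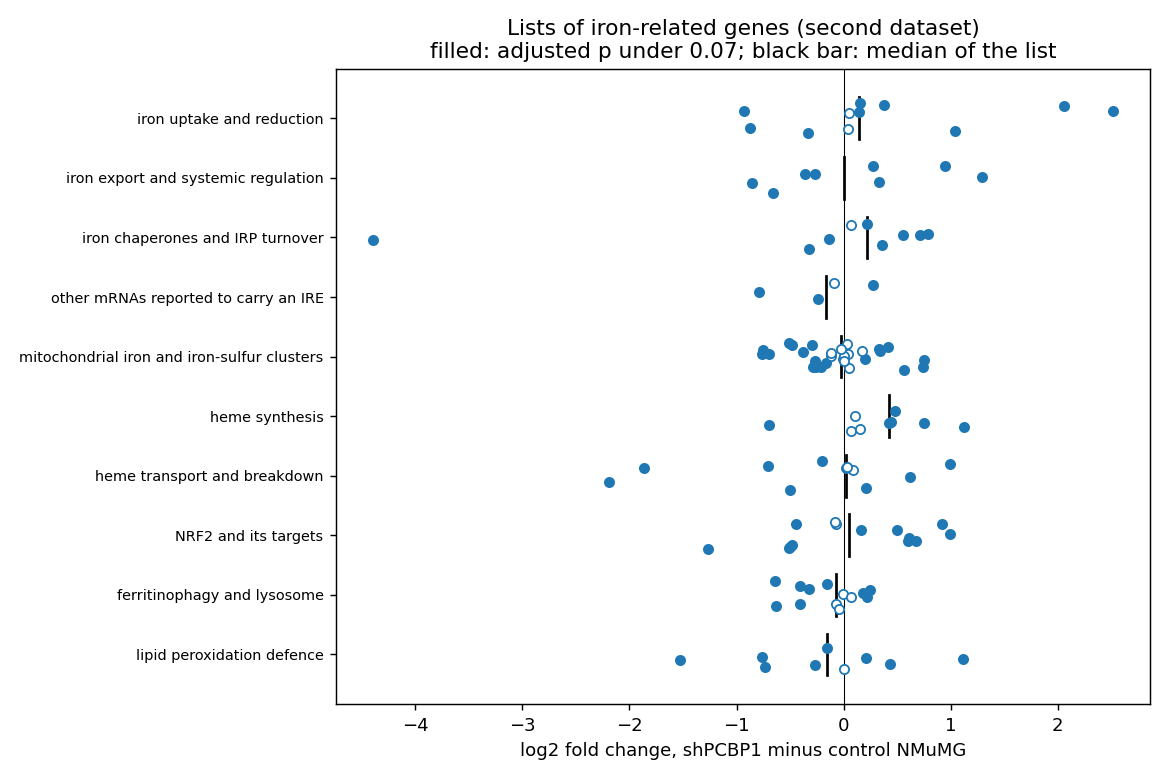
Log2 fold change (shPCBP1 minus control NMuMG, n = 2 each) of each tested gene in 10 lists of iron-related genes, 1 row per list, with filled points past an adjusted p of 0.07 and a black bar at the list median. Each list has points on both sides of 0, and the bar of heme synthesis stands farthest from 0, at 0.42.

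The first dataset compared shPCBP1 lines before and after knockout of FAM3C, a secreted cytokine-like protein, or of LIFR, the receptor for the cytokine LIF. No member passed the test after FAM3C KO, and Slc11a2 was lower after LIFR KO. Trf was below 1 CPM in every line. Of the 10 members 9 had a mean of at least 0.5 CPM and were tested, within a fit of 12621 genes, and Trf did not reach it. The comparisons share their controls, the 4 shPCBP1 lines.

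The Trf level was 0.374 CPM in the unaltered line and 0.107, 0.808 and 0.172 CPM in the CT clones, in order of clone number. In FAM3C KO it was 0.133, 0.0400 and 0.154 CPM, in LIFR KO 0.966, 0.0416 and 0.0858 CPM, and in the double KO 0.281 CPM. FAM3C KO clone 2 and LIFR KO clone 2 were at the lowest value of their library. CT clone 2 and LIFR KO clone 1 were at 20 and 18 times the lowest value of theirs, so that lines of the same group differed widely, and the ranges of the groups overlapped. Without the filter on low values the log2 fold changes were -0.96 ± 0.71 (SE) for FAM3C KO and -0.38 ± 0.71 for LIFR KO (adjusted p = 0.744 and 0.726 by limma). Across the 10 lines of the 3 groups, the tested genes whose log2 values were most like those of Trf were Cul9 (Pearson r = 0.919), Pkp4 (0.912), Pth1r (0.898), Ttll5 (0.882) and Tacc3 (0.881). These were the 5 highest of 12621 correlations with values below 1 CPM and are a description only.

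After FAM3C KO, 0 of 9 members passed the adjusted threshold in limma, where 0.309% of all genes did, and 0 of 9 had an unadjusted p under 0.05, where 10.2% of all genes did. The lines did not overlap for 0 of 9 members, where 22.7% of all genes did not. The log2 fold changes ran from -0.17 (Tfrc) to 0.37 (Slc40a1), with SEs of 0.10 to 0.29. Slc40a1, the exporter, was at 79.5, 55.0 and 70.0 CPM in FAM3C KO against 66.4, 62.6, 40.6 and 43.9 CPM in the shPCBP1 lines, so that the groups overlapped. Slc11a2 was at 46.1, 47.2 and 48.0 CPM in FAM3C KO, inside the range of the shPCBP1 lines. Of the 120 tested genes of the 10 lists, 0 passed after FAM3C KO in limma.

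After LIFR KO, 1 of 9 members passed, where 6.47% of all genes did (0.911% higher and 5.55% lower), and 4 of 9 had an unadjusted p under 0.05, where 35.7% of all genes did. Slc11a2 was at 49.1, 42.6, 50.1 and 55.7 CPM in the shPCBP1 lines (unaltered first, then CT 1 to 3), whereas the LIFR KO clones had 32.6, 26.3 and 36.5 CPM. Each LIFR KO clone was below each shPCBP1 line, and the double KO, at 33.3 CPM, lay within the LIFR KO range. The group means were 31.8 ± 5.13 CPM (SD, n = 3) and 49.4 ± 5.35 CPM (SD, n = 4), and the log2 fold change was -0.64 ± 0.13 (SE, adjusted p = 0.0388 by limma). It was opposite in sign to the change of the same gene in shPCBP1 against control cells in the second dataset.

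The genes around Slc11a2 moved with it. Slc11a2 lies on chromosome 15 from 100387898 to 100425072 (GRCm38, minus strand). The 106 tested genes within 5 Mb had median log2 differences from the shPCBP1 mean of -0.46, -0.94 and -0.51 in LIFR KO clones 1, 2 and 3 and of -0.44 in the double KO, beside -0.59, -0.90, -0.43 and -0.56 for Slc11a2. Over all genes the medians were -0.01, -0.25, -0.21 and -0.24 in these lines. In the 3 FAM3C KO clones the neighbours were between -0.04 and 0.05. After subtraction of the neighbours' median, Slc11a2 was at -0.13, 0.04 and 0.08 in the LIFR KO clones, so that its fall was no larger than that of the surrounding genes in clones 2 and 3.

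**Figure D3:**
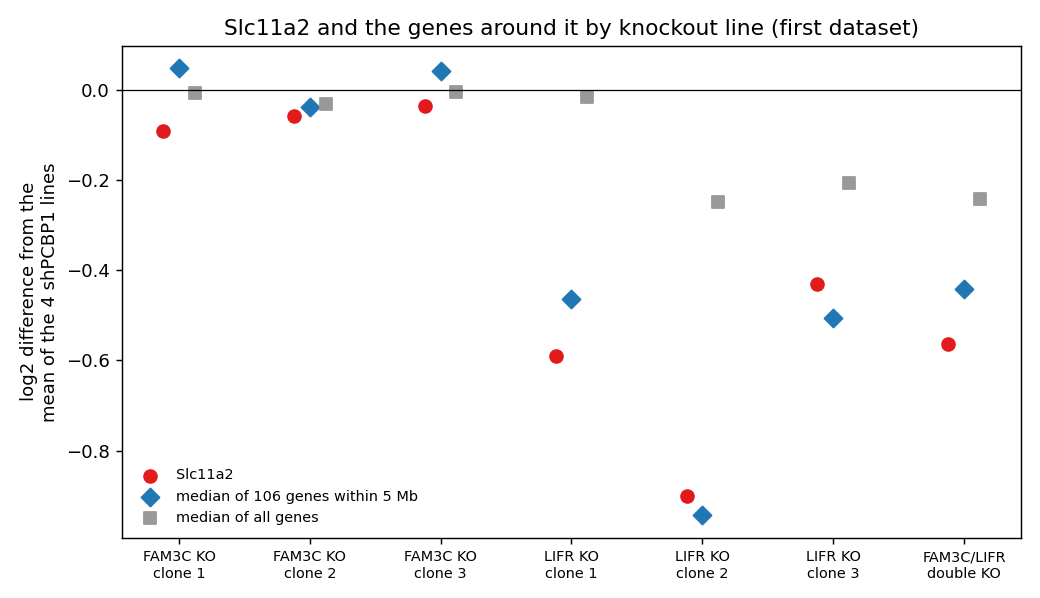
Log2 difference from the mean of the 4 shPCBP1 lines for Slc11a2 (red circles), for the median of the 106 tested genes within 5 Mb (blue diamonds) and for the median of all genes (grey squares) in each knockout line. In LIFR KO clones 1 to 3 and the double KO the red and blue points lie together between -0.43 and -0.94, below the grey ones, whereas in the FAM3C KO clones all points lie near 0.

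The call for Slc11a2 also depended on the samples and the fit. It did not pass with a correction for GC content (-0.47, adjusted p = 0.125), with LIFR KO clone 1 alone (-0.59, adjusted p = 0.0717, a lone sample assumed to vary like the other groups), or without LIFR KO clone 2 (-0.51, adjusted p = 0.126). It did not pass without the unaltered line (adjusted p = 0.103) or without CT clone 1, 2 or 3 (adjusted p = 0.075, 0.126 and 0.107 by limma). The log2 fold change stayed between -0.75 and -0.51 with any 1 line left out.

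Slc40a1 was at 69.3, 78.1 and 116 CPM in LIFR KO and 90.1 CPM in the double KO, all above the shPCBP1 lines, of which the highest was at 66.4 CPM. Its log2 fold change of 0.71 ± 0.23 (SE) did not pass (adjusted p = 0.0827 by limma). Together with Slc11a2, Slc40a1 made 2 of 9 members whose LIFR KO and shPCBP1 lines did not overlap, where 17.2% of all genes did not. The ratio of Slc11a2 to Slc40a1 CPM was 0.681 to 1.27 in the shPCBP1 lines, 0.581 to 0.859 in FAM3C KO, 0.315 to 0.471 in LIFR KO and 0.369 in the double KO.

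Ftl1 and Ireb2 differed between LIFR KO clone 1 and the other 2 LIFR KO clones. Ftl1 was at 1319, 1033, 1190 and 1040 CPM in the shPCBP1 lines, at 1086 CPM in LIFR KO clone 1, at 468 and 651 CPM in clones 2 and 3, and at 593 CPM in the double KO. Clone 1 was thus within the shPCBP1 range, and the other 3 lines were below it. On the log2 scale, Ftl1 differed from the shPCBP1 mean by -0.07, -1.28 and -0.81 in LIFR KO clones 1 to 3. The 112 tested genes within 5 Mb of Ftl1 had medians of 0.04, -0.55 and -0.65 in these clones. In the double KO Ftl1 was at -0.94 and these neighbours at -0.53. The part of the neighbouring genes in the fall of Ftl1 was not tested. A near-identical copy, Ftl1-ps1, was listed in this dataset and took 32.2 to 37.5% of the summed values, so that reads may have been split between the copies. The sum of both was 1552 to 1999 CPM in the shPCBP1 lines, 1604 CPM in LIFR KO clone 1, 733 and 1028 CPM in clones 2 and 3, and 897 CPM in the double KO.

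Ireb2 was at 119, 133, 117 and 143 CPM in the shPCBP1 lines, at 122 CPM in LIFR KO clone 1, at 213 and 231 CPM in clones 2 and 3, and at 217 CPM in the double KO. The lines that were low in Ftl1 were the ones high in Ireb2. The 87 tested genes within 5 Mb of Ireb2 had medians of 0.004, -0.08 and -0.09 in LIFR KO clones 1 to 3, beside -0.07, 0.74 and 0.86 for Ireb2. The GC content of the longest coding transcript was 58.1% for Ftl1, the highest of the members, and 39.0% for Ireb2, the lowest. LIFR KO clones 2 and 3 and the double KO are the libraries with the strongest trend of gene values with GC content. The part of this trend in the values of Ftl1 and Ireb2 was not tested. Neither gene passed in LIFR KO as a group (Ftl1 -0.72 ± 0.24 SE, adjusted p = 0.0868, and Ireb2 0.51 ± 0.20 SE, adjusted p = 0.107 by limma). Without clone 1, the LIFR KO group consists of 2 libraries with this GC trend. Ftl1 was then at -1.05 (adjusted p = 0.000526 by limma) and Ireb2 at 0.80 (adjusted p = 0.000253). Over the 7 fits with 1 line left out, 5 to 7234 of all 12621 genes passed, so such p-values were not particular to these genes. With clone 1 alone Ireb2 was at -0.07.

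The remaining members overlapped between LIFR KO and the shPCBP1 lines. Fth1 was at 1604, 1337, 1499 and 1817 CPM in the shPCBP1 lines, at 1726, 1707 and 1761 CPM in FAM3C KO and at 1704, 1127 and 1202 CPM in LIFR KO. Tfrc was at 456 to 594 CPM in shPCBP1, 379 to 574 CPM in FAM3C KO and 401 to 635 CPM in LIFR KO. Ncoa4 was at 39.8 to 56.0, 38.2 to 46.4 and 47.5 to 61.9 CPM in the same groups, and Aco1 at 49.0 to 54.8, 50.2 to 58.1 and 43.8 to 55.4 CPM. Hmox1 varied most among the tested members within the shPCBP1 lines, at 73.0, 59.4, 71.3 and 133 CPM, with an SD of 0.51 on the log2 scale that was larger than in 93.5% of the genes tested. It was at 57.4 to 98.7 CPM in FAM3C KO and 45.0 to 74.3 CPM in LIFR KO. The double KO lay within the range of the LIFR KO clones for 9 of the 10 members (all but Ncoa4) and within that of the shPCBP1 lines for 3 (Trf, Tfrc and Ncoa4).

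**Figure D4:**
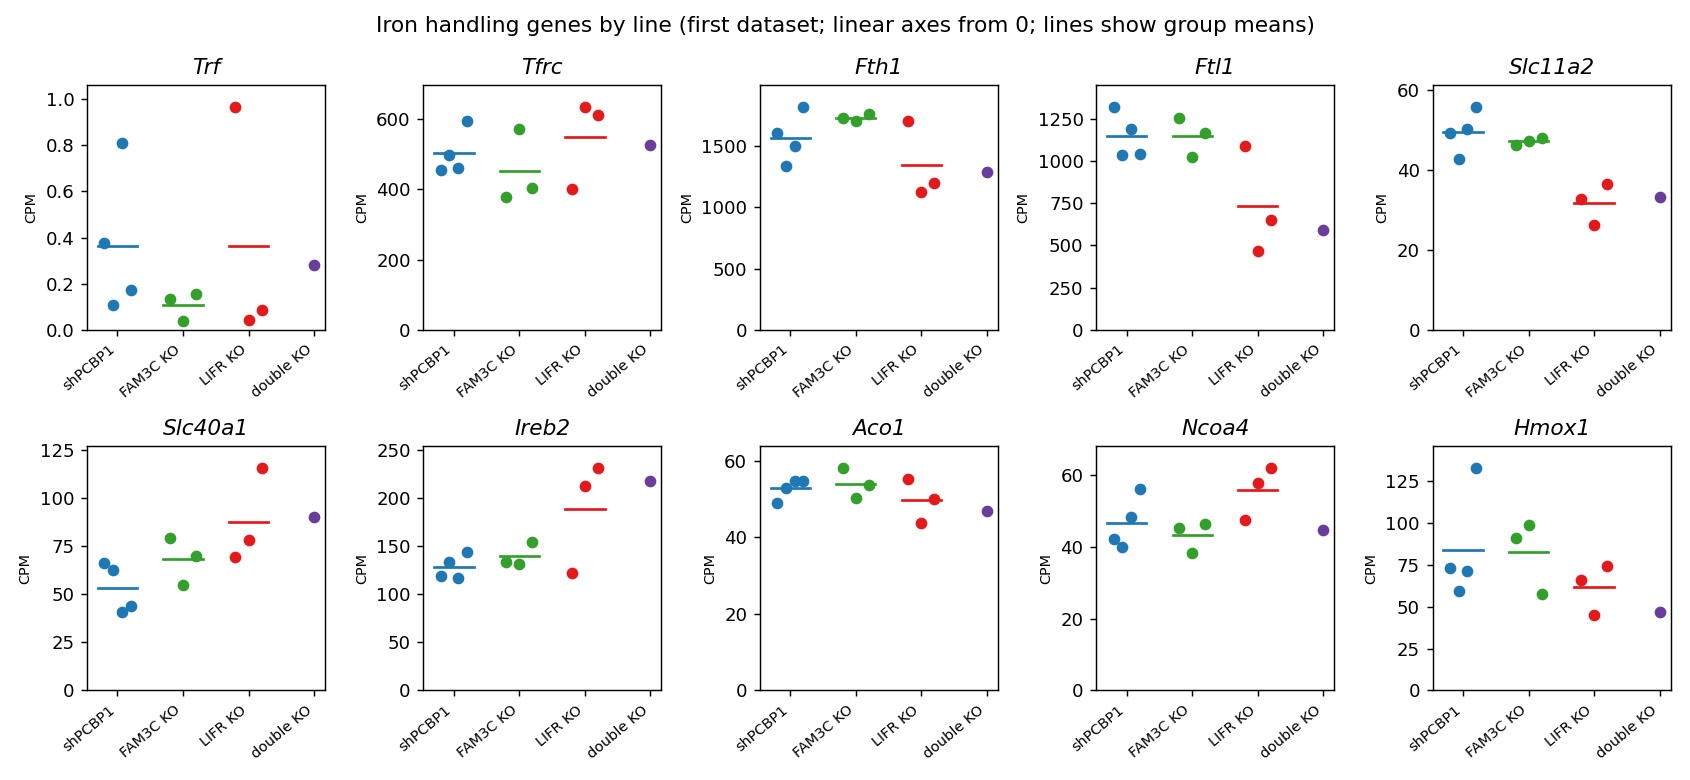
CPM of each member in each line of the first dataset on linear axes from 0, in shPCBP1 (n = 4), FAM3C KO (n = 3), LIFR KO (n = 3) and the double KO (n = 1), with a line at each group mean. Slc11a2 is below the shPCBP1 lines in all 3 LIFR KO clones, whereas for Ftl1 and Ireb2 LIFR KO clone 1 lies with the shPCBP1 lines and clones 2 and 3 do not.

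The contrast of FAM3C KO with LIFR KO tests the difference between the knockouts. Slc11a2 was higher in FAM3C KO by 0.58 ± 0.14 on the log2 scale (SE, adjusted p = 0.0449 by limma), and the clones of the groups did not overlap. This was 1 of 9 members, where 8.28% of all genes passed (6.83% higher in FAM3C KO), and 4 of 9 members had an unadjusted p under 0.05, where 29.3% of all genes did. In this contrast 3 of 9 members did not overlap (Slc11a2, Fth1 and Ncoa4), where 22.8% of all genes did not. The call for Slc11a2 was lost without FAM3C KO clone 1, 2 or 3 (adjusted p = 0.156, 0.101 and 0.138 by limma) and without LIFR KO clone 2 (adjusted p = 0.151).

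**Figure D5:**
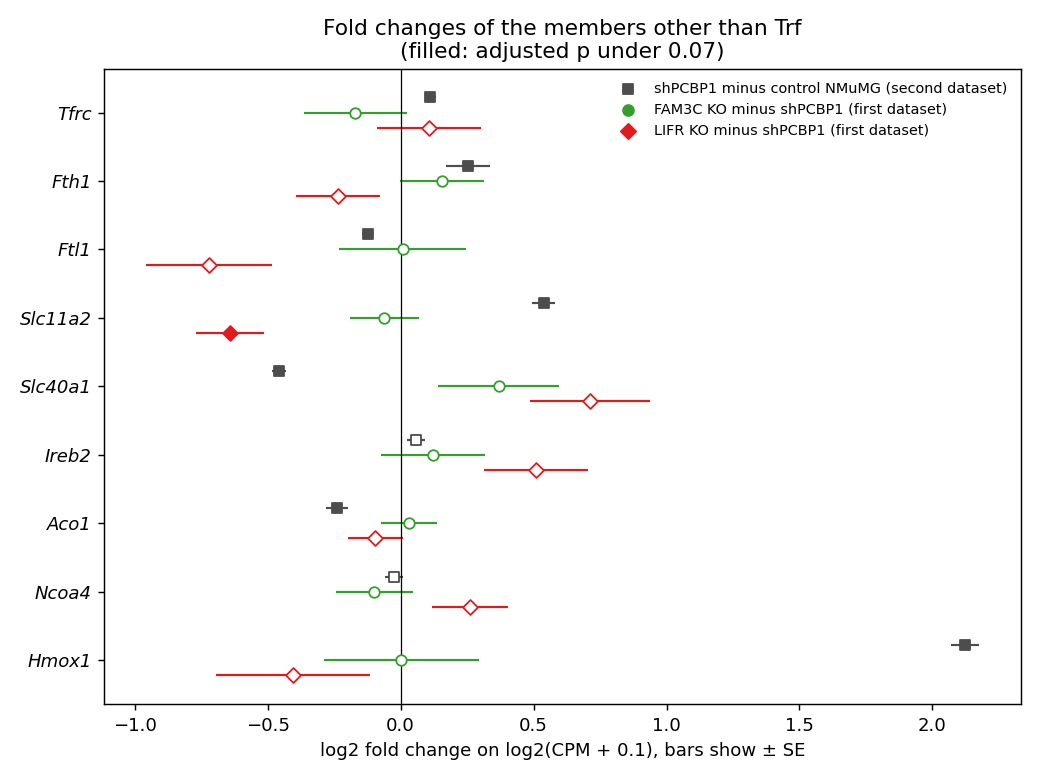
Log2 fold change with its SE for the 9 members other than Trf, in shPCBP1 minus control NMuMG (grey squares), FAM3C KO minus shPCBP1 (green circles) and LIFR KO minus shPCBP1 (red diamonds), filled where the adjusted p was under 0.07. The green circles are all open, and Slc11a2 is the only filled red diamond, at -0.64, opposite to its grey square at 0.54.

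Among the 120 tested genes of the lists, 2 were higher and 14 lower after LIFR KO, where 0.911% of all genes were higher and 5.55% lower, with a median log2 fold change of -0.16, as over all genes (-0.16). The largest change was the fall of Ephx1, an epoxide hydrolase on the list of NRF2 targets, by -1.12. It was at 76.6, 86.9, 100.4 and 84.6 CPM in the shPCBP1 lines and at 38.6, 30.5 and 53.1 CPM in LIFR KO. Its 53 neighbours within 5 Mb had medians between -0.01 and 0.02 in the LIFR KO clones. Ephx1 was also lower in FAM3C KO clones 1 to 3, at -0.56, -0.59 and -0.58 against the shPCBP1 mean, but did not pass there. In the double KO it was at -0.58. Exoc6, an exocyst subunit linked to transferrin recycling, rose by 0.66 after LIFR KO and Me1, malic enzyme, by 0.59. The medians of the 64 neighbours of Exoc6 were 0.62, 0.51 and -0.01 in LIFR KO clones 1 to 3, beside 0.66, 0.97 and 0.36 for Exoc6.

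Steap3, the BMP targets Id1, Smad6 and Smad7, and Gpx4, which reduces lipid peroxides, were lower after LIFR KO, by -0.89, -0.86, -0.99, -0.80 and -0.78 on the log2 scale. Against the shPCBP1 mean, Smad6 was at -0.23, -1.37 and -1.35 in LIFR KO clones 1 to 3, and Smad7 at -0.23, -1.09 and -1.09. Id1 was at -0.51, -1.19 and -0.89 in the same clones, and Steap3 at -0.49, -1.55 and -0.62. Gpx4 was at 51.7 to 59.8 CPM in the shPCBP1 lines, 48.1 CPM in LIFR KO clone 1 and 26.5 and 27.6 CPM in clones 2 and 3. Its 181 neighbours had medians of 0.03, -0.82 and -0.68 in clones 1 to 3, beside -0.23, -1.09 and -1.03 for Gpx4. The neighbours of Pcbp3, Iscu and Osgin1 were also lower in clones 2 and 3, with medians of -0.88 to -0.52, and not in clone 1, with medians of -0.03 to 0.04. Those of Alas1, Nfu1, Atp6v0d1 and Id1 had medians of -0.49 to -0.35 in clones 2 and 3 and of -0.05 to 0.04 in clone 1. In clones 2 and 3 the neighbours of Smad7 and Steap3 were between -0.31 and -0.11. Those of Smad6 and Ctsb were between -0.03 and 0.05. Over all genes the medians were -0.25 and -0.21. Further list genes that were lower included Pcbp3, Iscu, Nfu1, Alas1, Osgin1, Atp6v0d1 and Ctsb, with log2 fold changes of -0.74 to -0.40. With the GC correction, the number of all genes that passed after LIFR KO dropped from 816 to 38.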

How the data were processed

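By the paper's account, RNA-Seq libraries (rRNA-depleted, paired-end) were processed in Partek Flow with Bowtie2 on GRCm38. The deposited values are CPM in both datasets. The second dataset also held the authors' own group means and fold change ratio, which were not used, and no column of per-sample values was left unmapped (0). The datasets were normalized apart, so no level was compared across them. Gene positions were taken from GENCODE M21 (GRCm38), since the coordinates in the first dataset are of a build other than the one the paper names. Whether counting used strand is not given in the sources used here.

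Low values were not whole multiples of 1 read often enough to recover counts, so log2(CPM + 0.1) was tested for genes averaging 0.5 CPM or more with limma (version 3.58.1, R 4.3.3, trended prior) and Benjamini-Hochberg adjustment at 0.07. The first dataset was fitted as 3 groups, with the double KO left out. Median-ratio and quantile scaling, another pseudocount, filter and threshold, a replicate block, a GC correction and leaving out samples were tried as alternatives. On simulated data, 178 of 200 changed genes were recovered among the 11384 of the second dataset. These were 93 of 100 at a log2 change of 2 and 85 of 100 at 1, with 6 false calls. For the LIFR KO comparison 179 of 200 were recovered among 12621 genes (94 of 96 and 85 of 104, with 9 false calls). The simulation took the spread of each gene from the control or shPCBP1 group alone and changed 200 genes, where 9123 passed in the second dataset. Whether these rates hold where most genes change or where knockout clones differ more than the controls was not tested. Nor was it tested for libraries with the GC trend of LIFR KO clones 2 and 3. In the deposited data, 5 to 7234 genes passed after LIFR KO with 1 line left out.

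The members and lists were chosen with earlier results of these data known. Members were all named. From each list, the genes past the threshold with the largest changes after PCBP1 knockdown or LIFR KO were named, at most 3 in each direction. Other genes were named after their values were seen. List genes past the threshold between FAM3C KO and LIFR KO were not described. Genes within 5 Mb of each member were examined after its values were seen. The values of 1 gene on the lists are not reported here.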

Additional observations from a re-analysis of the deposited data

Results flagged for a closer look

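Slc11a2 differed between the knockouts, with a log2 fold change of FAM3C KO over LIFR KO of 0.58 ± 0.14 (SE, adjusted p = 0.0449 by limma), and it was higher in each of 3 FAM3C KO clones than in each of 3 LIFR KO clones. The call was lost under 11 of 18 alternatives (adjusted p of 0.00739 to 0.199 over all 18), and the 106 genes within 5 Mb had medians of -0.46, -0.94 and -0.51 in the LIFR KO clones against the shPCBP1 mean. The single double KO line, which entered no test, had Slc40a1 at 90.1 CPM and Ireb2 at 217 CPM, both above the highest shPCBP1 line (66.4 and 143 CPM). The double KO was one of the 3 libraries with the strongest trend of gene values with GC content.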

How the results depend on the processing

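In the second dataset, Hmox1 passed under all 12 alternatives (2.03 to 2.18), and the log2 fold change of Trf, given as a description, ran from -8.54 to -6.09. The number of members past the threshold was 8, was 2 with a fold of at least 1.5 required, and ran from 7 to 9 with 1 sample left out. Ftl1 turned to 0.21 with quantile normalization, and Fth1 was lost with it (0.09, adjusted p = 0.375) and without the filter (adjusted p = 0.166). After FAM3C KO 0 members passed under all 18 alternatives. After LIFR KO, 1 member (Slc11a2) became 0 with the replicate block, with the 2 groups fitted alone, with the GC correction with or without the block, and with LIFR KO clone 1 alone, and ran from 0 to 6 with 1 line left out. The 6 arose without LIFR KO clone 1 (Slc11a2, Fth1, Ftl1, Slc40a1, Ireb2 and Ncoa4). Of all 12621 genes tested, 5 to 7234 passed with 1 line left out, so the 6 are not read as a result about the members. Between FAM3C KO and LIFR KO, 1 became 0 with median-ratio or quantile scaling, the fold requirement, the replicate block, the 2 groups alone and the GC correction with or without the block. With 1 line left out the number of members ran from 0 to 6, where 1 to 6673 of all genes passed.

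Signs changed as follows, on the log2 scale. Aco1 after LIFR KO (-0.09) was 0.069 with median-ratio scaling, 0.038 with quantile scaling, 0.17 with the GC correction, 0.14 with GC and block, and 0.068 with clone 1 alone. Aco1 between the knockouts (0.12) was -0.019 with median-ratio scaling, -0.11 with the GC correction with or without the block, and -0.037 with clone 1 alone. After FAM3C KO, the replicate block gave -0.0050 for Aco1 and -0.041 for Hmox1, quantile scaling gave -0.00031 for Ftl1, and leaving out 1 line gave -0.023 to 0.082 for Aco1, -0.060 to 0.089 for Ftl1 and -0.15 to 0.25 for Hmox1. Tfrc after LIFR KO (0.11) was -0.26 with GC, -0.29 with GC and block, -0.32 with clone 1 alone and -0.011 to 0.32 with 1 line left out, and between the knockouts (-0.28) it was 0.048 with GC with or without the block and 0.15 with clone 1 alone. Fth1 after LIFR KO (-0.23) was 0.11, 0.12 and 0.13 with GC, GC and block, and clone 1 alone. With clone 1 alone Ireb2 was -0.067 after LIFR KO and 0.19 between the knockouts. The cause was not tested.

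Over all genes, 816 passed after LIFR KO, against 478 with median-ratio scaling, 359 at 0.05, 10 with the replicate block, 35 with the groups alone, 38 with GC, 0 with GC and block, 281 with clone 1 alone, and 5 to 7234 with 1 line left out. After FAM3C KO 39 passed, against 21 at a mean of at least 1 CPM, 15 with the block, 1048 alone, 273 with GC, 5 with GC and block, and 3 to 27 with 1 line left out. Between the knockouts 1045 passed, against 587 at 0.05, 0 with the block, alone or with GC and block, 80 with GC, and 1 to 6673 with 1 line left out. In the second dataset 9123 passed, against 3543 with the fold requirement. The median of all genes after LIFR KO moved from -0.16 to -0.00 with median-ratio scaling, and the split of higher and lower genes from 115 and 701 to 190 and 288. Between the knockouts the split moved from 862 and 183 to 494 and 324. Samples with the same number did not deviate together (median r = -0.033 against -0.022 for different numbers in the first dataset), so the numbers do not pair the samples. The deposited values carry no counts, so that counting error was not modelled, and with 1 RNA sample per line the spread between clones and that between preparations cannot be told apart.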
